A study of Drosophila melanogaster with 2 samples.

Results

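Binding of Dmrt99B was described at 10 genes of the ecdysone response: EcR, usp, br, Eip74EF, Eip75B, Eip78C, Hr3, Hr4, ftz-f1 and Hr39. These genes were chosen by name, with earlier results of these data known. They are 10 of the 13945 protein-coding genes of the Drosophila melanogaster annotation. Of these 10, 8 encode nuclear receptors, while br encodes zinc-finger factors and Eip74EF an ETS-domain factor. Dmrt99B, a DM-domain transcription factor, was mapped by ChIP-seq in whole embryos of mixed sex aged 6 to 16 hours. The embryos came from a transgenic line that stably expresses Dmrt99B with eGFP at its C-terminal end. Per the description in the labels the precipitation used an antibody against GFP, whereas the antibody entry names dmrt99B. There was 1 group with 2 biological replicates, numbered 3 and 4, and all embryos carried the fusion. The labels do not state what drives the fusion or whether the line keeps its own Dmrt99B. In chromatin of whole embryos, binding in fewer cells and weaker binding per cell cannot be told apart. With no second group, no test was made, and every value below is a description.

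Ecdysone is the steroid hormone that times moulting and metamorphosis in insects, and a pulse of it also occurs in the middle of embryogenesis. It binds EcR, which acts on DNA as a heterodimer with usp, the fly RXR. In the cascade known best from larvae and prepupae, the receptor switches on early genes such as br, Eip74EF and Eip75B. Early-late nuclear receptors such as Hr3 and Hr4 follow, and they control the competence factor ftz-f1.

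The authors deposited a list of 7838 peaks kept by an irreproducible discovery rate (IDR) threshold, which rests on how alike peaks rank in replicates. The peaks kept were the 7838 strongest of a longer list made from both replicates, so a single peak can still rank differently in each replicate. Each peak has a summit and a signal value, the score that the authors' peak caller gave it. A summit was assigned to a gene when it lay in the gene body or when its nearest protein-coding transcription start site (TSS) was the gene's. By this rule 71 IDR summits belonged to the 10 genes, and 9 of the 10 had at least 1, against 27.8% of all protein-coding genes. The exception was Hr39. A summit within 1000 bp of an annotated TSS was present at 7 of the 10 genes, against 20.1% of all protein-coding genes. At least 5 summits were assigned to 7 of the 10, against 3.38% of all genes, and at least 10 to 3 of the 10, against 0.674%.

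Most of the 10 genes are long, and long genes had more summits. Their loci, the stretches from which a summit would be assigned to them, had a median of 61.1 kb, against 5.25 kb for all protein-coding genes, and 6 of the 10 reached 50 kb, while that of usp was 4.27 kb. Of the 518 genes with a locus of at least 50 kb, 74.3% had a summit, 35.7% had a summit within 1000 bp of a TSS and 13.3% had at least 10. Over their 627 kb in all, the 10 genes held 1.13 summits per 10 kb (95% Poisson interval 0.884 to 1.43, counting error only), against 0.585 over the 6 chromosome arms. The 0.585 is taken over whole arms, which include stretches of several Mb without an IDR summit. Such stretches lower it, and the part they have in the contrast was not tested. Per gene, the median was 1.20 per 10 kb for the 10 genes and 0.365 for the 518 long genes. The 1.20 includes genes with loci below 50 kb, among them the densest, usp (4.69) and Hr3 (2.38). The 6 that reached 50 kb had 2.15 (ftz-f1), 1.65 (Hr4), 1.23 (Eip75B), 0.972 (Eip74EF), 0.958 (EcR) and 0.166 (br). Summits were spread unevenly within the group: Eip75B with 16, ftz-f1 with 13, Hr4 with 11 and EcR and Hr3 with 8 each stood at the upper end, and the 4 genes with most held 48 of the 71 (67.6%).

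Sequences of 251 bases around 6 of the summits are printed as examples. They are the strongest summits of ftz-f1, Hr4, br and Eip74EF, none of which lies in an exon, and the 2 summits of Eip75B whose windows held CAGTGTA or an ecdysone response element. CAGTGTA is a word that is frequent under all peaks of these embryos. Each is the plus strand of the dm6 genome (RefSeq release 6 assembly), with the summit at its centre. Capitals mark, in the order printed, CAGTGTA on either strand at Eip75B, the ecdysone response element palindrome at Eip75B, no motif at ftz-f1, ACAATGT (the core of the DM-domain motif) on the minus strand at Hr4, no motif at br, and AGGTCA (the core site of many nuclear receptors) on the minus strand at Eip74EF.
Eip75B, chr3L:18009032-18009282: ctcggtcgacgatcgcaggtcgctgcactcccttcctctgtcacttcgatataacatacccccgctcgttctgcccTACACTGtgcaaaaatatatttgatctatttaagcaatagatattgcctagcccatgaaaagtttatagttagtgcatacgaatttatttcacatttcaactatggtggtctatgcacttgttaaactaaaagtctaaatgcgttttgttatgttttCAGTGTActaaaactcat
Eip75B, chr3L:17972157-17972407: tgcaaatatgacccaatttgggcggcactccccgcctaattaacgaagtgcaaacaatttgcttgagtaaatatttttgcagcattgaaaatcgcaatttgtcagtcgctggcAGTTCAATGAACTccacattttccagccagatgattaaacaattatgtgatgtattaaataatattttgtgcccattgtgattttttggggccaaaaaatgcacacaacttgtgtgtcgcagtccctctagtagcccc
ftz-f1, chr3L:18769379-18769629: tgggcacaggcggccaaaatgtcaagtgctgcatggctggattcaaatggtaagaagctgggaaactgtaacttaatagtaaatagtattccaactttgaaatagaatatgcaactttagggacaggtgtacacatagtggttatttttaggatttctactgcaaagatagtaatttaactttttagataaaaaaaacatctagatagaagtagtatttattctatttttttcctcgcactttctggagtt
Hr4, chrX:1963803-1964053: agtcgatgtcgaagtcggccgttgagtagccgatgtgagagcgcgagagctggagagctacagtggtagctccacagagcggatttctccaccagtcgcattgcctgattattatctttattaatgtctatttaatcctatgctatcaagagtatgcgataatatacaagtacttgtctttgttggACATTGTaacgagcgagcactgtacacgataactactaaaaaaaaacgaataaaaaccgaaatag
br, chrX:1618734-1618984: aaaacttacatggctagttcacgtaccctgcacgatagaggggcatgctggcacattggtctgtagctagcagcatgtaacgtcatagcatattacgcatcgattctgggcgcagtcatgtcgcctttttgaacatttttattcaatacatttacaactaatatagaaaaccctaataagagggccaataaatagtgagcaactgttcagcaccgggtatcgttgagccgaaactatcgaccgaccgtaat
Eip74EF, chr3L:17566906-17567156: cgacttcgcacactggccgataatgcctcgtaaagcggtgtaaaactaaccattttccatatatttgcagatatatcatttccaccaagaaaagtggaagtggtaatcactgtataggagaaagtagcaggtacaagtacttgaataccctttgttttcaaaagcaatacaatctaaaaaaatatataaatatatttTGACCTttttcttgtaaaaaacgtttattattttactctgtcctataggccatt

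In these sequences the palindrome lay 6 bp from its summit and the nearer CAGTGTA 46 bp from its summit. ACAATGT at Hr4 lay 64 bp and AGGTCA at Eip74EF 75 bp from the summit. The strongest ftz-f1 and br windows held none of the 4 motifs.

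**Figure D1:**
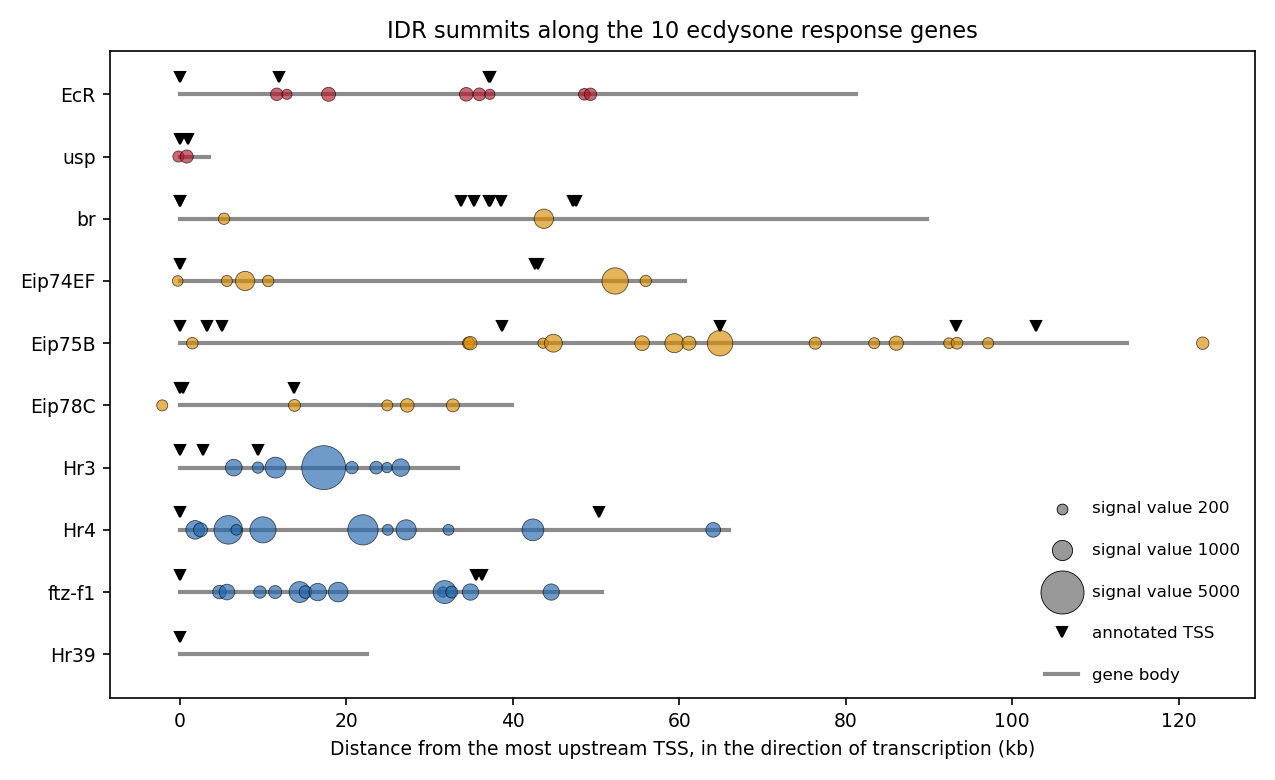
Map of the 10 genes, each drawn from its most upstream TSS in the direction of transcription (x axis, kb). Circles are IDR summits with area growing with the signal value, triangles are annotated TSSs and grey lines are gene bodies. Red marks EcR and usp, orange br, Eip74EF, Eip75B and Eip78C, and blue Hr3, Hr4, ftz-f1 and Hr39. The strongest circle is at Hr3, the br line carries 2 circles and the Hr39 line none.

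The receptor subunits EcR and usp had summits at their promoters, none among the 1000 strongest peaks. EcR (FBgn0000546), the hormone-binding subunit, spans chr2R:6087873-6169087 on the minus strand and had 8 summits over a locus of 83.5 kb, or 0.958 per 10 kb (0.414 to 1.89). The median signal value was 313 (170 to 424), against 341 over all IDR peaks, and the best rank was 3129 of 7838. That strongest summit lay in an intron, 5895 bp downstream of the start of EcR-RD and EcR-RE, and ranked 4130 in replicate 3 and 1839 in replicate 4. The next in strength were intronic too, with signal values of 393 and 328. None of the 8 was among the 1000 strongest peaks.

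All EcR promoters except the most upstream had an IDR summit. The summit at EcR-RD and EcR-RE lay 326 bp upstream of the start with a signal value of 314, and ranked 5428 in replicate 3 and 2864 in replicate 4. A further summit, in the 5′ UTR 895 bp downstream of that start, had a signal value of 170 and ranked 9854 in replicate 3 and 6292 in replicate 4. The summit at EcR-RG and at EcR-RB and EcR-RC, whose starts lie close together, was 14 bp upstream of the first and 67 bp downstream of the others, with a signal value of 174. At EcR-RA the nearest IDR summit lay 2529 bp upstream and was assigned to another gene. A summit of the longer, relaxed list made from both replicates (30000 peaks, called the pooled list below) lay 231 bp from that start, with a signal value of 156 and rank 8438, below the weakest IDR peak at 169.

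The partner usp (FBgn0003964) is the shortest of the 10 genes, at chrX:2038798-2042311 on the minus strand, with a locus of 4.27 kb. It had 2 summits, 1 at each of its 2 promoters. The summit 190 bp upstream of usp-RA had a signal value of 355 and ranked 3946 in replicate 3 and 3641 in replicate 4. It also lay within the body of the neighbouring gene Actn. The other, 189 bp upstream of usp-RB, had a signal value of 222 and ranked 6277 in replicate 3 and 5820 in replicate 4. That summit was as near to the start of Actn and lay within the gene CG4313. By the rule Actn had 2 summits too, with a top signal value of 355. The density of usp, 4.69 summits per 10 kb, was the highest of the 10, with an interval of 0.568 to 16.9 that spans most of the others.

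Among the early genes, Eip75B carried many summits and br few, although their loci are of similar length. Eip75B (FBgn0000568), a haem-binding nuclear receptor that represses transcription, spans chr3L:17950953-18064696 on the minus strand. Its 16 summits over 130 kb came to 1.23 per 10 kb (0.702 to 2.0), and only 13 of the 13945 genes had more. The closest pair of the 16 lay 227 bp apart, in peaks that overlap, and was counted as separate summits. By density Eip75B ranked 64 among the 518 genes with a locus of at least 50 kb. The median signal value was 299 (171 to 1672).

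The strongest Eip75B summit lay 28 bp downstream of the start of Eip75B-RC. It had a signal value of 1672 and ranked 466 in replicate 3 and 375 in replicate 4. Of its 16 summits, 8 lay upstream of that start, in introns of the longer transcripts, and among them were the next in strength with signal values of 888 and 766. These ranked 1257 and 1796 in replicate 3, and 1246 and 1079 in replicate 4. The start of Eip75B-RA had a summit 115 bp downstream, with a signal value of 263, and another 843 bp upstream. The other 5 starts, of Eip75B-RF, Eip75B-RE, Eip75B-RB, Eip75B-RG and Eip75B-RD, had no IDR summit within 1000 bp. At Eip75B-RD a summit of the pooled list lay 4 bp from the start with a signal value of 91.0. The last of the 16 lay beyond the gene's 3′ end, 20016 bp downstream of the start of Eip75B-RD, within the non-coding gene lncRNA:CR43174.

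The upstream Eip75B summit near Eip75B-RA is the 1 that held the ecdysone response element shown above. Its signal value was 197, and it ranked 7935 in replicate 3 and 5155 in replicate 4. By signal it was therefore outside the 7838 strongest peaks of replicate 3.

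The locus of br (FBgn0283451), at chrX:1575132-1664869 on the plus strand, is 121 kb long with 9 annotated TSSs. It encodes the Broad BTB zinc-finger factors and had 2 summits, or 0.166 per 10 kb (0.0201 to 0.598). That interval lies below the interval of Eip75B, and br ranked 342 by density among the 518 long genes. The stronger summit had a signal value of 908 and ranked 1246 in replicate 3 and 1144 in replicate 4. It lay 3449 bp upstream of the nearest br start, br-RS, and 704 bp from the start of Mur2B, a gene nested in br. The weaker had a signal value of 240, lay 5281 bp downstream of br-RO and ranked 5804 in replicate 3 and 6060 in replicate 4. Both summits also lay within the body of Mur2B. None of the 9 br starts had an IDR summit within 1000 bp, and none had a pooled summit there either, since the nearest lay 3449 bp away. The pooled list held 14 summits at br and 53 at Eip75B.

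Eip74EF (FBgn0000567), at chr3L:17558672-17619325 on the minus strand, had 6 summits at its 2 ends and none in the 41.7 kb between. Its density was 0.972 per 10 kb (0.357 to 2.12). The strongest, with a signal value of 1792, ranked 410 in replicate 3 and 324 in replicate 4. It lay in an intron 9289 bp downstream of the start of Eip74EF-RD, about as far as from the start of the neighbouring gene CycT at 9243 bp. The second, with a signal value of 906, lay 7826 bp downstream of the most upstream promoter and ranked 1132 in replicate 3 and 1261 in replicate 4. That promoter itself had a weak summit 271 bp upstream with a signal value of 192, which ranked 6700 in replicate 3 and 9264 in replicate 4. The promoters of Eip74EF-RB and Eip74EF-RD had no IDR summit within 1000 bp, and a pooled summit 228 bp and 78 bp away had a signal value of 146.

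Eip78C (FBgn0004865), a nuclear receptor related to Eip75B, spans chr3L:21226609-21266503 on the plus strand. Its 5 summits came to 1.16 per 10 kb (0.378 to 2.71) and were all of low to middling strength, with signal values from 215 to 386. The strongest, in an intron 13576 bp downstream of the start of Eip78C-RB, ranked 4023 in replicate 3 and 2730 in replicate 4. The promoter of Eip78C-RB had a summit 29 bp downstream of the start, with a signal value of 275, which ranked 5303 in replicate 3 and 4836 in replicate 4. The only intergenic summit of the 10 genes lay 2130 bp upstream of Eip78C-RD and Eip78C-RE, with a signal value of 218. The 3 intronic summits were nearer to the start of the nested gene CG43218 than to any start of Eip78C.

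**Figure D2:**
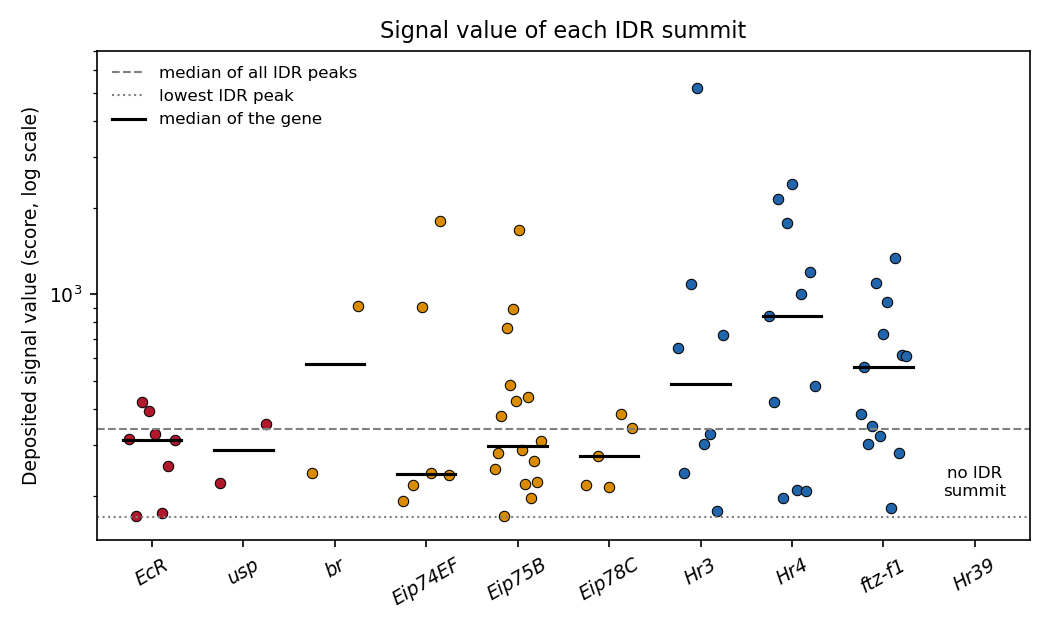
Deposited signal value of each IDR summit (y axis, score on a log scale) at the 10 genes, with a bar at the median of each gene. The dashed line is the median of all IDR peaks (341) and the dotted line the weakest IDR peak (169). EcR, usp and Eip78C have no point above 424, while Hr3, Hr4, ftz-f1, Eip75B and Eip74EF each have points above 1000.

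The later nuclear receptors Hr3 and Hr4 held the 3 strongest summits of the 10 genes, all in introns. The strongest of ftz-f1 came after those of Eip74EF and Eip75B. Hr3 (FBgn0000448), a receptor of the ROR family that acts on ftz-f1, spans chr2R:10203995-10237348 on the minus strand. Its 8 summits over 33.7 kb came to 2.38 per 10 kb (1.03 to 4.68). The strongest had a signal value of 5209, rank 25 of all 7838 peaks, and ranked 25 in replicate 3 and 23 in replicate 4. The next strongest summit of the 10 genes, at Hr4, had a signal value of 2414. The Hr3 summit lay in an intron, 7880 bp downstream of the start of Hr3-RA, Hr3-RF and Hr3-RH. The others followed at a distance in strength, with signal values of 1087, 726 and 650 for the next of them.

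The summit nearest to a Hr3 promoter was weak. It lay 14 bp upstream of the start of Hr3-RA, Hr3-RF and Hr3-RH, with a signal value of 239, and ranked 5808 in replicate 3 and 5784 in replicate 4. CG46321 starts at the same position, so that summit and the intronic ones nearest to it belong to both genes by the rule. All 8 Hr3 summits, the strongest included, also lay within CG12912, another protein-coding gene. By the rule CG12912 had 8 summits too, with a top signal value of 5209. The starts of Hr3-RD and of Hr3-RC and Hr3-RI had no IDR summit within 1000 bp, and the pooled summits 850 bp and 211 bp upstream of them had signal values of 42.8 and 67.5. The 3 summits farthest downstream were nearer to the start of CG34221 than to any start of Hr3, and also lay within CG46321.

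Hr4 (FBgn0264562), a nuclear receptor that represses early genes at the onset of metamorphosis, spans chrX:1941940-2007956 on the plus strand. Its 11 summits, 1.65 per 10 kb (0.822 to 2.94), had the highest median signal of the 10 genes, 838, and 4 were among the 1000 strongest IDR peaks. The 3 strongest had signal values of 2414, 2135 and 1764 and lay 21988, 5809 and 9974 bp downstream of its upstream promoter. They ranked 190, 259 and 412 in replicate 3, and 215, 303 and 350 in replicate 4. Of the 11 summits, 10 were intronic. The other, with a signal value of 480, lay in the 3′ UTR and was nearer to the start of PIG-K than to Hr4, and it ranked 2974 in replicate 3 and 2421 in replicate 4.

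Neither promoter of Hr4 had an IDR summit within 1000 bp. The pooled list held a summit 53 bp upstream of the upstream promoter with a signal value of 99.6 and another 155 bp upstream of the start of Hr4-RE and Hr4-RF with a signal value of 146. The nearest assigned IDR summits lay 1828 bp downstream of the upstream promoter and 7947 bp upstream of the start of Hr4-RE and Hr4-RF.

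At ftz-f1 (FBgn0001078), at chr3L:18750607-18801309 on the minus strand, 12 of 13 summits lay in an intron of a single transcript. The gene encodes a nuclear receptor that is a cofactor of the segmentation protein Ftz in early embryos and a competence factor in prepupae. Its density of 2.15 per 10 kb (1.15 to 3.68) ranked 12 among the 518 long genes. The 12 lay within 30.2 kb of the stretch that is an intron of ftz-f1-RB and lies upstream of the starts of the other transcripts. The strongest, with signal values of 1341, 1092 and 941, ranked 695, 967 and 1045 in replicate 3 and 585, 767 and 1280 in replicate 4. The strongest shared its peak with a second summit 209 bp away that had a signal value of 181 and ranked 11132 in replicate 3 and 5188 in replicate 4. The 8 ftz-f1 summits farthest upstream, among them those of 1092 and 941, also lay within the non-coding gene lncRNA:CR45939.

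The ftz-f1 promoter with a summit in reach was that of ftz-f1-RC and ftz-f1-RD, 651 bp downstream of a summit with a signal value of 616. The start of ftz-f1-RB had none within 1000 bp in either list. The start of ftz-f1-RA had a pooled summit 621 bp downstream, with a signal value of 163, below the weakest IDR peak at 169. It was among the 5 pooled summits of the 10 genes next below that limit, and the others lay at Eip74EF (165), Eip78C (159), Hr4 (159) and EcR (158).

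Hr39 (FBgn0261239), at chr2L:21237250-21259675 on the plus strand, was without an IDR summit. It is a nuclear receptor related to ftz-f1. Over its locus of 22.7 kb, a count of 0 allows up to 1.63 summits per 10 kb by the Poisson interval, which is above the mean of the 10 genes. The nearest IDR summit lay 40.6 kb upstream of its single start. The pooled list held 6 summits, the best with a signal value of 115.2 and rank 11174. The best peaks in the replicate lists ranked 10809 in replicate 3 and 14750 in replicate 4. A pooled summit lay 51 bp from the start with a signal value of 39.1, rank 29354 of 30000.

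**Figure D3:**
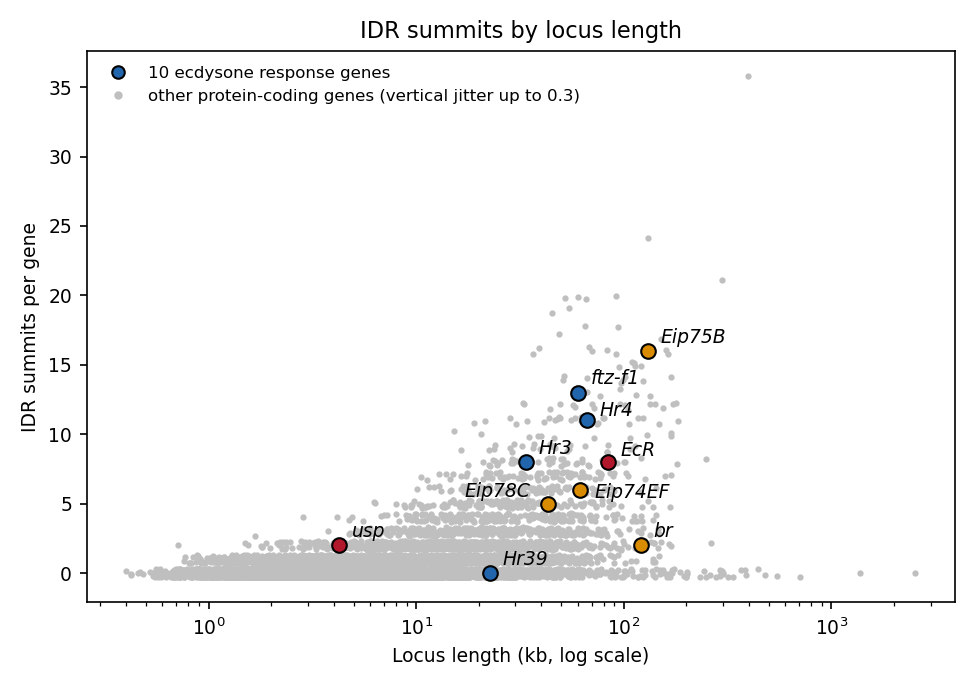
IDR summits per gene (y axis) against locus length (x axis, kb, log scale) for the 10 genes (large, labelled, coloured as in the map) and the other protein-coding genes (grey). Eip75B and br, of 130 and 121 kb, had 16 and 2 summits.

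Within a gene, the summits lay mostly in introns and away from starts. Of the 71 summits, 59 were intronic (83.1%, 95% Wilson interval 72.7 to 90.1), against 46.4% of the rest of the IDR list (45.3 to 47.5). Within 500 bp of an annotated TSS lay 9 (12.7%, 6.81 to 22.4), against 30.5% of the rest (29.5 to 31.5). With the promoter window widened to 1000 bp the share was 21.1%, against 42.7% of the rest. The 2 remaining exonic summits were those in the 5′ UTR of EcR and the 3′ UTR of Hr4, and none lay in coding sequence. An intergenic position was found for 1 of 71 (1.41%), against 20.2% of the rest. These intervals cover counting error over summits only, and summits of 1 gene are not independent of each other. Most of the 10 loci are long (median 61.1 kb), and the part that length has in these shares was not tested. The rule also takes in every summit inside a gene body, where 67 of the 71 lay. A high intronic and a low intergenic share therefore follow in part from the rule, which did not select the rest of the list.

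The median distance to the nearest protein-coding TSS was 5563 bp for the 71 summits and 2066 bp for the rest. More than 5 kb away lay 38 of the 71 (53.5%), against 31.6% of the rest. By promoter, 11 of the 37 annotated TSSs of the 10 genes (29.7%) had an IDR summit within 1000 bp, against 20.7% of all TSSs of protein-coding genes, and 26 had none. Of the 58 intronic summits inside a protein-coding intron, 32 (55.2%) lay in the first intron of at least 1 transcript, against 64.8% of the rest. Inside the gene body lay 67 of the 71. For 12 of the 71 the nearest TSS was that of another gene, namely CG34221 and CG43218 with 3 each, CycT with 2, and CG14589, Atg3, PIG-K and Mur2B with 1 each.

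**Figure D4:**
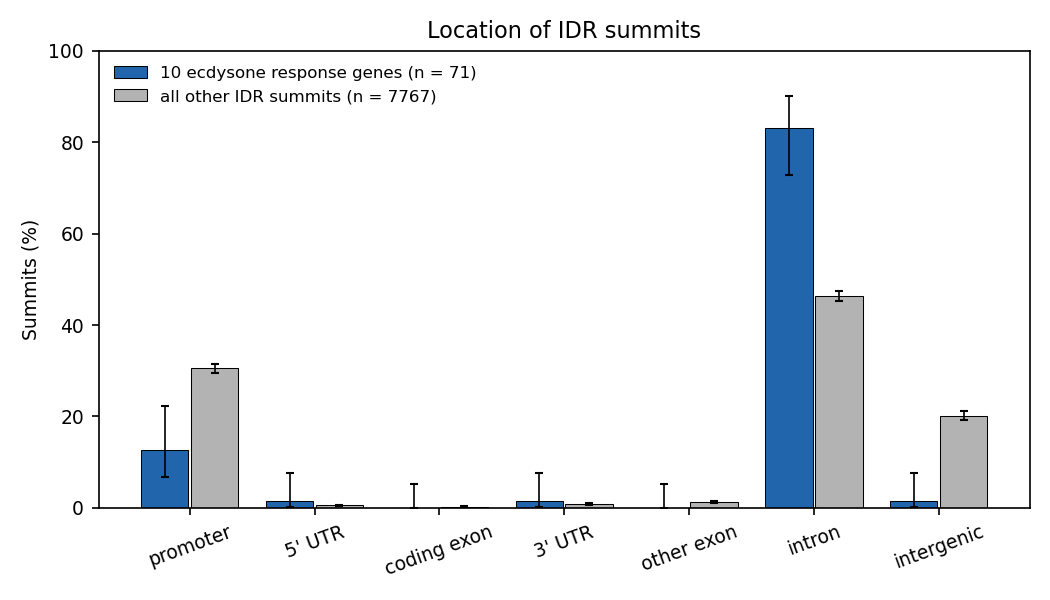
Share of IDR summits in each location class (y axis, percent) for the 10 genes (blue, 71 summits) and all other IDR summits (grey, 7767). Bars start at 0 and error bars are 95% Wilson intervals. Introns hold 83.1% of the summits at the 10 genes and 46.4% of the others.

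Strength and spacing were close to those of the whole list. The median signal value was 344 at the 10 genes and 341 over the rest, and 10 of the 71 (14.1%) were among the 1000 strongest peaks, against 12.7% of the rest. Of these 10, Hr4 held 4, Hr3 and ftz-f1 2 each, and Eip75B and Eip74EF 1 each. Neighbouring summits of the same gene were a median of 3094 bp apart (209 to 41689 bp, 62 spacings), against 2571 bp over all protein-coding genes. Closer than 1000 bp lay 16.1% of the spacings at the 10 genes and 21.9% over all. Peaks had a median width of 424 bp at the 10 genes and 401 bp elsewhere, and the GC content of windows of 201 bp was 35.7% ± 8.82 at the 10 genes and 33.9% ± 7.36 elsewhere (SD over windows).

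Both replicates ranked the strong summits alike. The IDR list was made from these same 2 replicates, so part of this agreement follows from how the list was made. Of the 71 summits, 62 (87.3%, 77.6 to 93.2) lay within 200 bp of a summit among the 7838 strongest peaks of each replicate, against 83.9% of the rest. The 9 that did not were all weak, the best ranking 5437 with a signal value of 249. All 71 had a summit within 200 bp in the full lists of both replicates. The distance between the IDR summit and its replicate counterpart was a median of 6 bp in replicate 3 and 12 bp in replicate 4, and at most 105 bp and 82 bp. Signal values of different lists are not on a common scale: for the Hr3 summit they were 3641 in the replicate 3 list and 1583 in the replicate 4 list.

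Read at other depths, the lists gave these counts. Over the 3919 strongest IDR peaks, 9 of the 10 genes had a summit, against 18.9% of all protein-coding genes, and 3 had a summit within 1000 bp of a TSS, against 13.2%. Over the pooled list all 10 had a summit, against 42.3%, and 9 were promoter-bound, against 34.0%. The 7838 strongest peaks of replicate 3 gave 9 genes with a summit (28.0% of all genes) and 7 promoter-bound (20.5%), and those of replicate 4 gave 9 (29.0%) and 6 (22.2%). At 500 bp from a TSS, 6 of the 10 were promoter-bound, against 16.1% of all genes, and at 5000 bp 9, against 40.5%. Nearest-TSS assignment alone left 9 genes with a summit (26.2% of all), as did the gene body alone (14.8%).

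**Figure D5:**
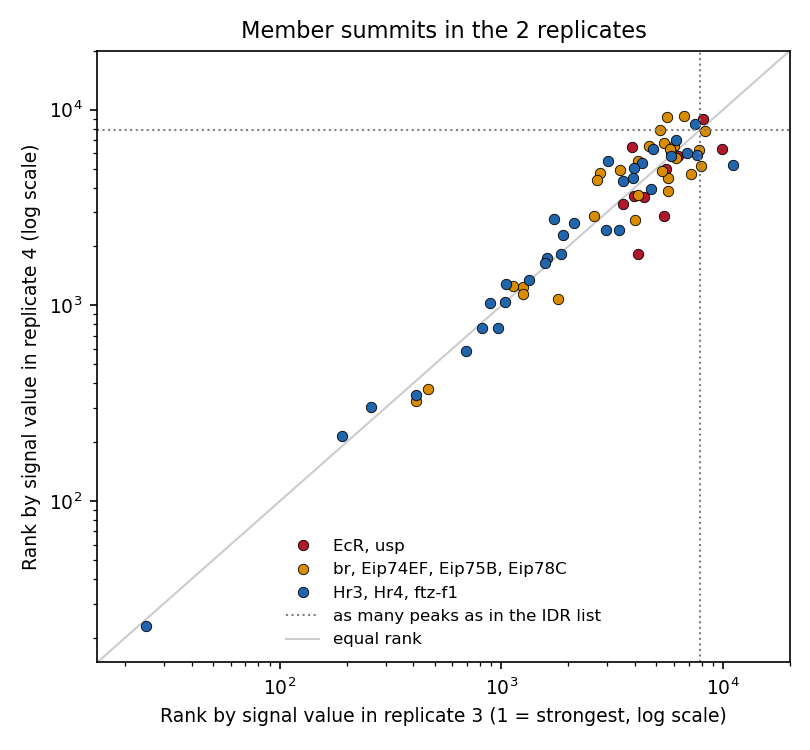
Rank by signal value of each of the 71 summits in replicate 3 (x axis) and replicate 4 (y axis), both on log scales with 1 as the strongest. Dotted lines mark rank 7838 in each replicate and the grey line equal rank. The Hr3 summit is at 25 and 23, and the points near rank 7838 scatter most.

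Few of the windows at the 10 genes held the words searched for. All matches were exact, on both strands, in 201 bp around each summit. CAGTGTA, which was picked because it was the most enriched 7-base word under these peaks in earlier results, occurred in 2 of 71 windows (2.82%, 0.776 to 9.70), against 8.42% of all 7838. Those windows were at Eip75B and Hr3. Within 200 bp of the summit 4 windows held it (5.63%, against 13.7% of all), among them those of the strongest Hr4 summit and of another Hr3 summit. ACAATGT occurred in 3 (4.23%), against 3.99% of all windows. A window without a word says only that these letters are not in it.

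Sites that nuclear receptors are known to bind were as infrequent. AGGTCA occurred in 3 of the 71 windows (4.23%), against 3.73% of all. The longer TAGGTCA and TCAAGGTCA, which contain it and are known from receptors of the ROR and FTZ-F1 type, occurred in none, against 1.05% and 0.0638% of all windows. Within 200 bp of the summit, 7 windows held AGGTCA (9.86%, against 7.57% of all). TAGGTCA was in 2 of them (2.82%, against 1.75%) and TCAAGGTCA in 1 (1.41%, against 0.268%). The ecdysone response element palindrome, an inverted repeat with 1 base between, occurred 206 times on the 6 chromosome arms, and 4 of these lay in loci of the 10 genes, 2 at Eip75B and 1 each at br and Hr4. It was present in 4 of all 7838 windows (0.0510%), and 1 of these 4 was the Eip75B summit printed above. Among words of other factors, GAGAG, bound by GAGA factor, occurred in 18 of the 71 windows (25.4%), against 20.6% of all. CAGGTAG, bound by Zelda, occurred in 1, against 0.740% of all, and TATCGATA, bound by DREF, in none, against 1.33%.

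Other lists of the pathway had a lower median number of summits and shorter median loci. Over all protein-coding genes 27.8% had a summit and 20.1% were promoter-bound. Of 13 further nuclear receptor genes, 5 had a summit (38.5%) and 4 a summit within 1000 bp of a TSS (30.8%), with a median locus of 19.9 kb. The strongest were at Hnf4 (signal value 1655), a metabolic regulator, at Hr78 (1193), at Hr38 (582) and at Hr51 (519). Of 13 genes for ecdysteroid synthesis, turnover and transport, 4 had a summit (30.8%) and 2 were promoter-bound (15.4%), shares close to those of all genes. None of their summits had a signal value above 406, and the order was Oatp74D, the ecdysone importer, with that value, the zinc-finger gene mld at 346, the hydroxylase gene shd at 203 and the hydroxylase gene phtm at 173.

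Of 11 genes for cofactors of EcR and for juvenile hormone signalling, 5 had a summit (45.5%, against 27.8% of all genes). Promoter-bound were 4 (36.4%, against 20.1%), among them alien, whose nearby summit was assigned to another gene. The strongest summit lay at the promoter of gce, which encodes a juvenile hormone receptor, with a signal value of 3479. The chromatin remodeller Mi-2 (2099), the corepressor Smr (2096) and the coactivator tai (821) had theirs in introns. Of 25 other ecdysone response genes, 11 had a summit (44.0%) and 8 were promoter-bound (32.0%). They were led by E23, an ABC transporter gene (3745), ImpL2, which encodes an insulin-binding protein (2547), the lactate dehydrogenase gene Ldh (2361) and vri, a bZIP factor gene (1562). No list other than the 10 genes had a median above 0 summits, and 1 gene of the 4 other lists, Eip63E with 12, reached 10.

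By locus length and number of summits, the genes nearest to Eip75B were Svil, mtgo and fz. They had 15, 14 and 15 summits over 122, 123 and 113 kb. The distances in log2 locus length and log2 summits plus 1 were 0.13, 0.20 and 0.22, from 1 list made of 2 replicates.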

How the data were processed

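The authors deposited peak lists in dm6 coordinates: relaxed lists of 30000 peaks for each replicate and for the pool of both, and an IDR list of 7838. Per the text listing deposited with the samples, the alignments and a further file, not used here, gave rise to the relaxed lists, which in turn gave the IDR list. All IDR peaks were the 7838 strongest of the pooled list. The deposited signal value is a score per peak from the authors' peak caller, on an unstated scale, and was compared within a list only. For aligner, peak caller and read depth, nothing is given in the sources used here.

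The members, gene lists and motifs were chosen with earlier results of these data known. Summits were placed on the Ensembl release 115 annotation. A locus is the gene body plus every base whose nearest protein-coding TSS is the gene's. Location classes took priority in this order: promoter (500 bp from an annotated TSS of any gene type), UTR at the 5′ end, coding exon, UTR at the 3′ end, remaining exons, introns, intergenic sequence. Every member was described. Summits named are the strongest, those at promoters and those outside introns. For the other lists, up to 4 genes of highest signal are named, and Eip63E was added after its values were seen. For 5 older symbols, the current ones were taken from RefSeq synonyms. Wilson and Poisson intervals cover counting error only. Nothing in the labels says how separate the replicates were beyond calling them biological. The assignment was tested on simulated summits. The work used matplotlib 3.10.9, scipy 1.17.1, pandas 2.3.3 and numpy 2.4.6 under Python 3.11.15.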

Additional observations from a re-analysis of the deposited data

How the results depend on the processing

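The counts depend most on how deep the list is read. With the 3919 strongest IDR peaks, 9 of the 10 genes had a summit and 3 were promoter-bound (against 13.2% of all genes). The summits then numbered 36, or 0.0574 per kb of locus, with 5.56% in promoters (12.7% in the whole list), a median signal value of 726 and a median spacing of 5487 bp. With the whole pooled list, all 10 genes had a summit and the summits numbered 259, or 0.413 per kb, with a median spacing of 945 bp. The share found in both replicates was 76.1% within 50 bp and 100% in the full replicate lists. Taking the strongest peaks of a single replicate in place of the IDR list kept 9 genes with a summit, 6 to 7 promoter-bound, 73 to 74 summits (0.116 to 0.118 per kb), 11.0% to 12.2% in promoters, a spacing of 2741 to 3251 bp, CAGTGTA in 2.70% to 4.11% of windows and 27 to 28 further pathway genes with a summit, against 25 in the IDR list. A promoter window of 1000 bp took in 21.1% of the summits. Promoter-bound genes numbered 6 at 500 bp and 9 at 5000 bp. Assignment by nearest TSS alone gave 59 summits and by gene body alone 67. Counting summits within 200 bp once left 71 and could not change the count, since the closest pair lay 209 bp apart. CAGTGTA occurred in 5.63% of windows of 200 bp to either side (13.7% of all IDR windows) and in 1.41% of those of 50 bp (1.84% of all). No paired analysis was possible because the series held 1 group. Of the 48 alternative values for these group results, 37 stayed and 11 moved, judged by 1.5 times for counts and by the 95% interval for shares, densities and medians. The 37 include the count and the spacing with summits within 200 bp counted once, which could not move. Depth is unknown, so a gene without a summit, such as Hr39, was not shown to be unbound.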

Other observations

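Some peaks near the 10 genes were assigned to neighbours by the rule. An IDR summit with a signal value of 440 lay 1739 bp upstream of the upstream Hr4 promoter, and an IDR summit with a signal value of 235 lay 2529 bp upstream of EcR-RA. Both were nearer to the start of another protein-coding gene and outside the gene bodies, and were not counted.

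The other 3 IDR windows with an ecdysone response element palindrome were nearest to Alh, Mst87F and N, with signal values of 173, 205 and 209. None of the 4 was above the median signal value of the IDR list, 341. The palindromes in the br and Hr4 loci lay 3231 bp and 923 bp from the nearest IDR summit, and the second palindrome at Eip75B 1403 bp.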
